A study of Mus musculus with 2 samples.

Results

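The genes described here are 8 interferon-inducible GTPases, 4 guanylate-binding proteins (GBPs: Gbp2, Gbp3, Gbp6 and Gbp7) and 4 immunity-related GTPases (IRGs: Igtp, Iigp1, Irgm1 and Irgm2), measured in sorted mouse spleen dendritic cells (DCs). They were taken by name, as the probe sets that the array annotation assigns to 1 of these genes and to no other. All 8 were found, with 12 probe sets, among 18194 genes on the array. Total RNA of 2 populations from C57BL/6 mice was hybridised, 1 array each. One was the CD8a+ and the other the CD8a- fraction of CD11c+ cells lacking CD3 and B220. Both came from mice carrying B16 melanoma cells that made Flt3L, the cytokine that drives DC development, and were taken between day 10 and day 12 after injection. The labels call both unstimulated. Tumour, Flt3L expansion and strain were thus common to both arrays, and the labels give neither the number of mice nor an age. With 1 array per population no test was possible and no value has a replicate error, so each difference describes this pair of arrays only.

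Both families are among the proteins most strongly induced by interferon-gamma, and type I interferons induce them too. They bind and hydrolyse GTP and act inside the cell that makes them, by coating the vacuoles in which Toxoplasma, Chlamydia and other microbes live, or bacteria free in the cytosol, and helping to break them open. The IRGs divide into effectors such as Irga6 (Iigp1), which load onto foreign vacuoles, and the Irgm proteins (Irgm1, Irgm2 and Irgm3, the last encoded by Igtp), which sit on the cell's own membranes and hold the effectors inactive there. Interferon-gamma acts at gamma-activated sites (GAS) and through the factor IRF1. Type I interferon acts mainly at interferon-stimulated response elements (ISRE), which IRF1 can also bind. In DCs these GTPases accompany the interferon response that also raises antigen presentation.

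Values are log2 signals from RMA, and every difference is CD8+ minus CD8-. A floor of 3.85, the overall median signal of the 2 arrays, separates near-background values, and a gene with 1 value or more at or above it counted as measured. A gene with several probe sets is represented by the brightest on average. Of the 8 genes 7 were measured. Gbp6 lay under the floor throughout, and Gbp3 and Gbp7 reached it only through the CD8- array, so that they had to be higher there to be counted at all. The sort markers followed the labels. Cd8a read 11.29 on the CD8+ array and 5.15 on the CD8- array, and Sirpa, a marker of CD8- DCs, read 4.49 and 8.69. All 5 markers of CD8+ DCs with a probe set were at least 2-fold higher on the CD8+ array. All 5 were above the floor on the CD8- array too, with a median of 7.22 there against 10.69 on the CD8+ array.

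Gbp2, the 1 GBP above the floor in both populations, was 3.42-fold higher in CD8- DCs, and Gbp3 and Gbp7 were at least 2.77-fold and 3.08-fold higher there. Of the 11404 measured genes 5.97% favoured CD8- DCs by 2-fold or more. A closer share for Gbp3 and Gbp7 is that of the 365 measured genes below the floor in CD8+ DCs, 174 of which (47.7%) did so. Both shares count differences as measured, with values below the floor left in, whereas the folds of Gbp3 and Gbp7 are bounds. With the floor applied, the count over all measured genes was 633 and not 681. The share among the 365 was not computed that way. None of the 4 IRGs differed by 2-fold. The 3 Irgm genes among them were 1.56-fold to 1.82-fold higher in CD8- DCs, and Iigp1 alone was higher in CD8+ DCs. In sorted bulk RNA a smaller share of expressing cells and less RNA per cell cannot be told apart.

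**Figure D1:**
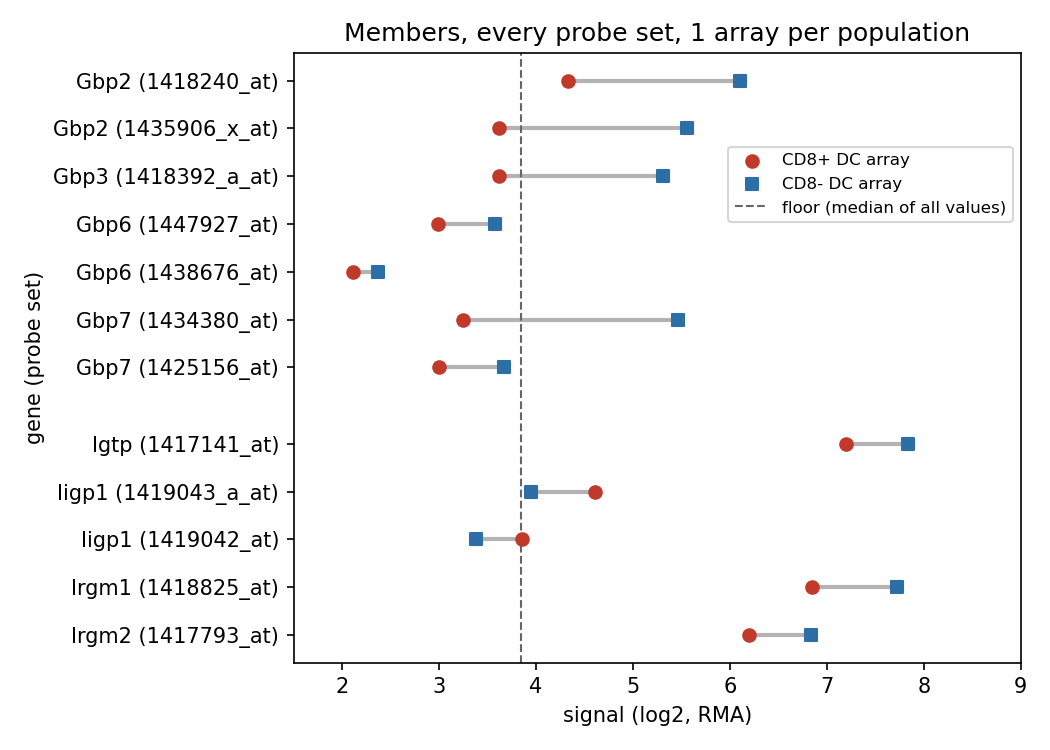
Signal (log2, horizontal axis) of every probe set of the 8 genes on the CD8+ DC array (red circles) and the CD8- DC array (blue squares), joined by a grey line; the dashed line is the floor of 3.85. Only the first Gbp2 probe set of the 7 GBP probe sets lies above the floor on both arrays, while the Irgm1, Irgm2 and Igtp probe sets lie above it on both.

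Gbp2, a lipid-anchored GBP that is recruited to pathogen vacuoles, read 4.33 on the CD8+ array and 6.10 on the CD8- array, a difference of -1.77 or 3.42-fold. Its other probe set, of a kind prone to cross-hybridisation (_x_at), read 3.62, below the floor, and 5.56. It was higher on the same array, but its difference of -1.94 was taken against a value close to background.

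Gbp3 had a single probe set, at 3.62 on the CD8+ array and 5.31 on the CD8- array. With the CD8+ value below the floor, its fold is a bound of at least 2.77-fold, against a difference of -1.69 as measured. Gbp7, which is known for supporting assembly of the phagocyte oxidase on phagosomes, read 3.24 and 5.47, or at least 3.08-fold. That is -2.22 as measured and -1.62 with the CD8+ value set to the floor. Its other probe set was below the floor on both arrays, at 2.99 and 3.67. Its difference had the same sign and a smaller size, -0.67, and with both probe sets averaged Gbp7 stood at -1.45.

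Gbp6 cannot be placed by these arrays. Its probe sets read 2.99 and 3.57, and 2.11 and 2.37, in CD8+ and CD8- DCs, all below the floor. Signals this low carry no fold, and the gene is described as not above the floor rather than as absent.

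The 3 measured GBPs lay near the floor, at least in CD8+ DCs. Among the 1692 measured genes whose mean signal lay within their range, 36.7% favoured the CD8- population by any amount and 6.62% by 2-fold or more, the latter close to the share over all genes. By difference, Gbp2 was at place 284 from the CD8- end of the 11404 genes. Gbp3 and Gbp7 have only bounds and are given no place.

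The promoters of these 3 genes are shown because the elements through which interferons act can be read in them. Windows come from RefSeq on GRCm38.p6 and run from 250 bases before to 50 after the annotated start. Of these, 120 bases are printed, from 110 before the start to 10 after it, 5′ to 3′ on the gene's strand, with capitals marking matches on either strand to the ISRE core (GAAA, any 2 bases, GAAA) or the GAS core (TTC, any 3 bases, GAA). The Gbp2 stretch is chr3:142620553-142620672, that of Gbp3 chr3:142559934-142560053 and that of Gbp7 chr3:142530226-142530345, each on the plus strand.
Gbp2: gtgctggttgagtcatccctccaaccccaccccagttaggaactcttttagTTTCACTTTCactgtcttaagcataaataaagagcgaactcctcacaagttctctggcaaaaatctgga
Gbp3: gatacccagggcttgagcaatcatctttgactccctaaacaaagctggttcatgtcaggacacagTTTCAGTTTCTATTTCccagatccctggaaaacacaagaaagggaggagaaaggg
Gbp7: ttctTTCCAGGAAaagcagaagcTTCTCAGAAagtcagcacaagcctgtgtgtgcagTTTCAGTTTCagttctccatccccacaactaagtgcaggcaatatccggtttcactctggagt
All 3 held the ISRE core on the strand opposite the gene, so that it reads as TTTC, 2 bases and TTTC in these lines. Counting the first transcribed base as 1, the core lay at -59 to -50 in Gbp2 and at -53 to -44 in Gbp7. In Gbp3 a pair of overlapping matches ran from -45 to -30. Gbp7 held 2 GAS cores as well, at -106 to -98 and at -87 to -79, and the Gbp2 and Gbp3 windows held none. The other RefSeq start of Gbp3 had neither core in its window. Gbp3 and Gbp7 shared a run of 13 bases across the element.

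Of the IRGs, the 3 Irgm genes were well above the floor in both populations and modestly higher in CD8- DCs. Irgm1, which guards the cell's own lysosomes and Golgi membranes, read 6.85 on the CD8+ array and 7.72 on the CD8- array, a difference of -0.87 or 1.82-fold. Igtp (Irgm3), found on the endoplasmic reticulum and lipid droplets, read 7.20 and 7.83, a difference of -0.64 or 1.56-fold. Irgm2, a Golgi-associated regulator, read 6.19 and 6.84, a difference that was also -0.64. Each had 1 probe set.

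The 3 Irgm differences were close to each other, and each exceeded the pooled SD of 0.30 between probe sets of 1 gene. That SD is a technical measure within the pair, over 5183 genes, and does not include variation between mice or sorts. By place, Irgm1 was at 831, Irgm2 at 1188 and Igtp at 1199 of 11404 from the CD8- end. In the 2107 measured genes of their signal range 52.6% favoured the CD8- population by any amount and 5.65% by 2-fold or more.

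Iigp1, the effector Irga6 that loads onto parasite vacuoles, went the other way. Its brighter probe set read 4.60 on the CD8+ array and 3.95 on the CD8- array, a difference of 0.65 or 1.57-fold. Its other probe set read 3.86, just above the floor, and 3.38, a difference of 0.48. Both probe sets of Iigp1 come from the same design sequence and are not independent, and both sat near the floor, where background compresses a difference. Iigp1 lay at place 10583 of 11404.

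**Figure D2:**
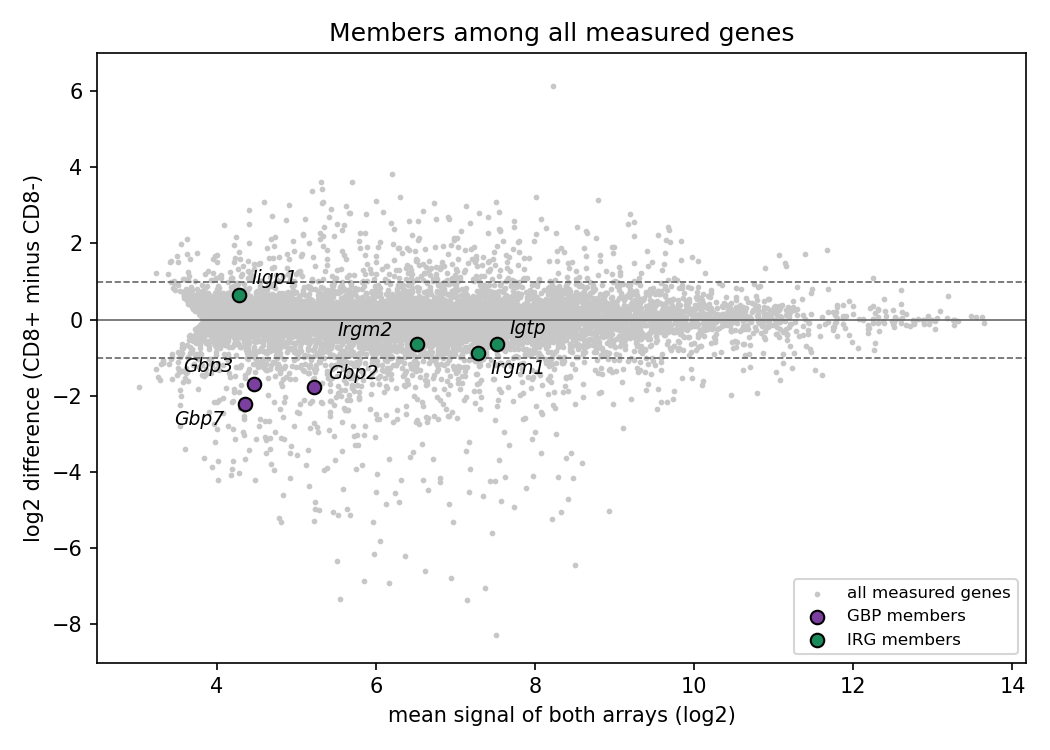
Log2 difference (CD8+ minus CD8-, vertical axis) against the mean log2 signal of both arrays (horizontal axis) for 11404 measured genes (grey), with the measured GBPs (purple) and IRGs (green); dashed lines mark 2-fold. Gbp2, Gbp3 and Gbp7 lie beyond the lower line at low signal, the 3 Irgm genes lie between it and 0 at higher signal, and Iigp1 lies above 0.

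The promoters of the Irgm genes are shown for comparison with those of the GBPs, with the same window and marks. The Irgm1 stretch is chr11:48871411-48871530 on the minus strand, that of Igtp chr11:58199446-58199565 and that of Irgm2 chr11:58214867-58214986, both on the plus strand.
Irgm1: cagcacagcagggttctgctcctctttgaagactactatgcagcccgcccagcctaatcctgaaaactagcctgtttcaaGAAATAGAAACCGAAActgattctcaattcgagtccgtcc
Igtp: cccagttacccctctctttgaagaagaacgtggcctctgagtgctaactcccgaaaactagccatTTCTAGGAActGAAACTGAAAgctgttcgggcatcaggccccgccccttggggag
Irgm2: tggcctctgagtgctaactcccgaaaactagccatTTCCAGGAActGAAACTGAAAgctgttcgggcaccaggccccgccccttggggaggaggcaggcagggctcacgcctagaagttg
Here the ISRE core lay on the gene's own strand in all 3, at -34 to -25 in Igtp and at -64 to -55 in Irgm2. In Irgm1 a pair of overlapping matches ran from -30 to -15. Igtp and Irgm2 each held 1 GAS core just upstream of the ISRE core, at -45 to -37 and at -75 to -67, and Irgm1 held none. Igtp and Irgm2 are close copies in this region and share a run of 61 bases that reaches the end of the Igtp window, so they do not count as separate observations.

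**Figure D3:**
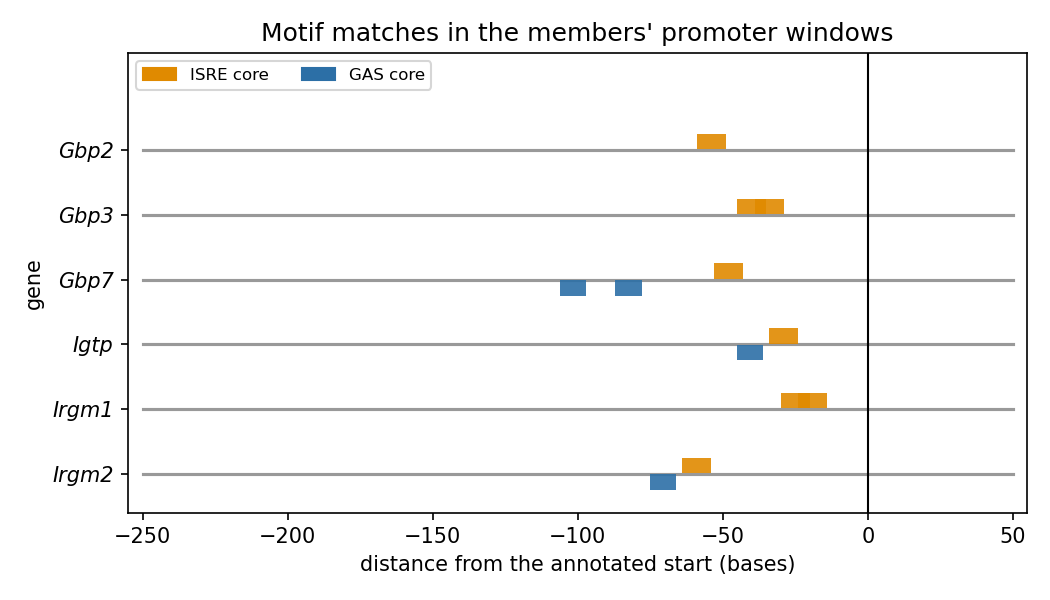
Position of ISRE core (orange) and GAS core (blue) matches in the promoter windows of the 6 genes, as the distance in bases from the annotated start (horizontal axis; 0 marks the start); for Gbp3 the window with matches is drawn. Each gene has an ISRE core match, and all of them lie between -64 and -15.

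A RefSeq promoter was found for 6 of the 8 genes. Gbp6 and Iigp1 had no entry. The ISRE core was present in all 6 genes and the GAS core in 3 of the 6. Igtp and Irgm2, which are close copies, enter both counts. The 6 genes had 7 windows, and the other Gbp3 window held neither core. Counted by window and not by gene, 3.44% of the 32851 windows of the same length in the table held the ISRE core and 8.30% the GAS core. A gene of the table can have several windows. These matches describe sequence and show neither binding nor activity in these cells.

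Of the 8 genes, 5 were above the floor in both populations. Of these 5, Gbp2 and the 3 Irgm genes had the higher value on the CD8- array, as did 44.8% of all measured genes, and Iigp1 had it on the CD8+ array. Gbp2 alone of the 5 passed 2-fold. No member passed it in favour of CD8+ DCs, as 3.55% of all measured genes did. The median difference over the 7 measured members was -0.87, against 0.03 over all measured genes, a description that includes Gbp3 and Gbp7.

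Few other genes of the families could be read. Of 7 other GBPs, 2 had a probe set of their own. Gbp8 was at 5.17 on the CD8+ array and 7.85 on the CD8- array, 6.40-fold higher in the latter. A further probe set, annotated to Gbp8 together with another GBP gene, was near the floor and nearly level, at 3.83 and 3.90. Gbp2b, a close relative of Gbp2, was at 4.17 and, below the floor, 3.53, at least 1.25-fold higher on the CD8+ array, through which alone it counted as measured. Of 10 other IRGs, 4 had a probe set of their own and 3 were measured. Ifi47 (Irgd), an effector IRG, was at 6.39 and 8.65, 4.81-fold higher in CD8- DCs. Irgq (4.21 and 4.23) and Irgc1 (4.45 and 4.52), IRG relatives that lack interferon induction, were nearly level. Gm4951 did not reach the floor. Of the Mx and very large GTPases, the antiviral Mx1 favoured CD8+ DCs by 1.89-fold (7.88 against 6.96), and Mx2 had the same value, 5.33, on both arrays.

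**Figure D4:**
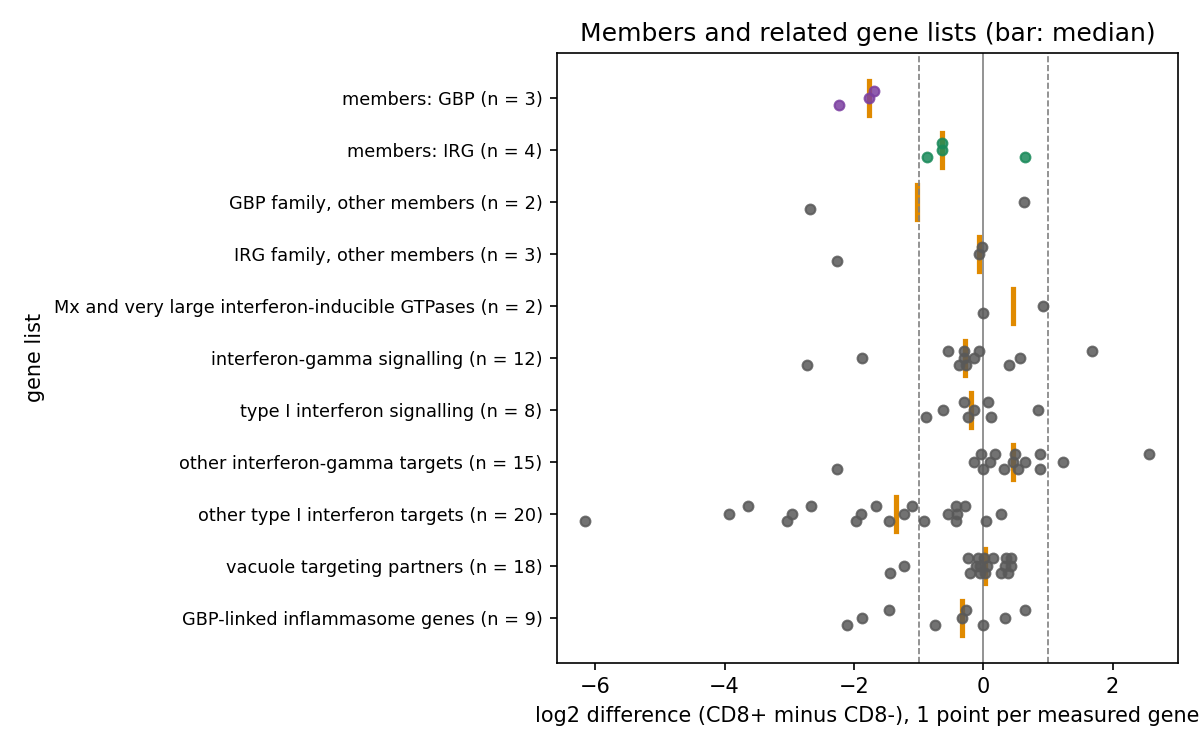
Log2 difference (CD8+ minus CD8-, horizontal axis) of each measured gene (points) in the GBP and IRG members and 9 related gene lists (rows, with the number of measured genes); orange bars are medians and dashed lines mark 2-fold. The medians of the type I interferon targets and the other interferon-gamma targets lie at -1.34 and 0.46; Gbp3 and Gbp7 are drawn at their measured differences, which rest on values below the floor.

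By median, the signalling genes that lead to these GTPases were closer to level than the 7 measured members, which include Gbp3 and Gbp7. Single signalling genes lay further apart. Of 12 measured genes of interferon-gamma signalling, 9 favoured CD8- DCs, 2 of them by 2-fold or more, and 1 gene favoured CD8+ DCs by that much (median -0.28). Over all measured genes these shares were 44.8%, 5.97% and 3.55%. The receptor chain gene Ifngr1 read 10.94 on the CD8+ array and 10.37 on the CD8- array, and Ifngr2 read 8.11 and 8.25. The kinase genes Jak1 (8.45 and 8.75) and Jak2 (9.52 and 10.06) and the factor gene Irf1 (7.88 and 8.19) differed by less than 2-fold. Past 2-fold were Irf8, a factor needed by CD8+ DCs, 3.22-fold higher in CD8+ DCs, and 2 inhibitors of cytokine signalling higher in CD8- DCs. The inhibitors were Socs3 (6.61-fold; probe sets from -2.72 to -0.995) and the phosphatase gene Ptpn6 (3.66-fold). The least different gene of the list was Ptpn2 (-0.07). Ifng itself was below the floor in both populations (2.41 and 2.33). None of the 8 measured genes of type I interferon signalling reached 2-fold (median -0.19). The furthest apart were Usp18, the feedback inhibitor of the receptor (7.61 and 8.48), and the kinase gene Tyk2 (8.18 and 7.33). The probe sets of Tyk2 ran from 0.18 to 0.85. The closest to level was Irf7 (8.24 and 8.17).

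Other targets of the interferons are given by class, and the difference between the classes was not tested. Of 20 measured type I targets, 4 were below the floor in CD8+ DCs. These 4 had to be higher in CD8- DCs to be counted at all. A closer share for them past 2-fold is 47.7%, which counts differences as measured and not bounds. In all, 18 of the 20 favoured CD8- DCs, as did 44.8% of all measured genes. By 2-fold or more 12 of them did, against 5.97% of all measured genes, and the median over the 20 was -1.34. The furthest apart were Rtp4, at least 36.8-fold (probe sets from -6.15 to -1.22), and Oasl2, a relative of the oligoadenylate synthetases, at least 14.6-fold. The others were Ifit3 (12.5-fold), the RNA sensor genes Ddx58 (8.15-fold, probe sets from -3.03 to -0.27) and Ifih1 (2.75-fold), Oas1a (7.78-fold), Ifit1 (at least 4.24-fold), Ifitm3 (3.93-fold), Rsad2 (3.69-fold), Oas2 (3.16-fold), Xaf1 (2.33-fold, probe sets from -1.22 to -0.17) and Isg20 (2.14-fold). Oasl1 was the closest to level (0.04). Of 15 measured other interferon-gamma targets, 11 favoured CD8+ DCs, as did 52.6% of all measured genes, and 3 the CD8- population. The 11 include Ido1, which has no usable fold, and genes whose probe sets lay on both sides. These were Ciita (from -0.38 to 0.19), Fcgr1 (from -1.645 to 0.10) and Tap1 (from -0.13 to 0.46). The median over the 15 was 0.46, or 0.33 with the floor applied, and 1 gene then passed 2-fold on each side. The CXCR3 ligand gene Cxcl9 stood 5.93-fold higher in CD8+ DCs (10.52 against 7.96). Cd274, which encodes PD-L1, stood 4.81-fold higher in CD8- DCs (5.46 against 7.73). Ido1 differed by 1.23 as measured, but its CD8+ value only just reached the floor and its CD8- value lay under it (3.85 and 2.62), which leaves no usable fold. Nos2 had the same value, 4.03, on both arrays. The classes overlap, since many of these genes respond to either interferon. By sequence, the ISRE core was found for 10 of 18 type I targets with a promoter in the table and for 1 of 10 of the other interferon-gamma targets. The GAS core was found for 6 of the 18 and 3 of the 10. Over all windows, counted by window and not by gene, the shares were 3.44% and 8.30%. Whether these matches relate to the differences was not tested.

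Genes that work with these GTPases were read in separate lists, for vacuole targeting and for the inflammasome. The 18 vacuole targeting partners, autophagy and ubiquitin genes that help place GBPs and IRGs on vacuoles, had a median of 0.02. Past 2-fold, in favour of CD8- DCs, were 2 of the 18, against 5.97% of all measured genes. The 2 were Lgals8, which encodes a sensor of broken vacuoles (5.73 and 7.17, 2.72-fold), and the Atg8-family gene Gabarapl1 (6.49 and 7.72, 2.35-fold). The conjugation genes Atg3 (10.27 and 9.92), Atg5 (6.69 and 6.93) and Atg7 (5.86 and 6.07), chosen after their values were seen, differed by less, and Ube2d3 was the closest to level (0.01). Of 9 measured inflammasome genes linked to GBPs (median -0.33), 3 favoured CD8- DCs by 2-fold or more, against 5.97% of all measured genes. No gene of the 9 favoured CD8+ DCs by that much, as 3.55% of all measured genes did. The 3 were Casp1 (4.32-fold), Casp4, which encodes the lipopolysaccharide-binding caspase-11 (4.49 and 6.36, 3.66-fold), and Il1b (2.74-fold). Aim2, the DNA sensor gene, had the same value on both arrays (6.42).

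Markers of other cells were read because a source of interferon-gamma or a cell rich in GTPases could lie in either gate. Of 5 NK cell markers with a probe set, 1 (Prf1) reached the floor, on both arrays. The log2 of their summed signal was 5.52 on the CD8+ array and 5.42 on the CD8- array, and Ncr1, the defining receptor gene, was below the floor (2.47 and 2.20). Of 5 T cell markers 2 reached it on each array, with summed signals of 6.11 and 6.24. All 4 monocyte or macrophage markers with a probe set reached it on both, with summed signals of 8.09 and 8.69. Among these, the macrophage surface receptor gene Adgre1 favoured CD8- DCs by 12.1-fold (4.63 against 8.22). Cd14 was higher in CD8+ DCs by 2.63-fold and Vcam1 by 1.82-fold (Vcam1 probe sets from 0.42 to 2.49). Fcgr1 was nearly level by the probe set that represents it (1.07-fold higher in CD8+ DCs), but its probe sets lay on both sides, from -1.645 to 0.10. B cell markers reached the floor for 1 of 5 genes on the CD8+ array and 2 of 5 on the CD8- array, with summed signals of 6.57 and 7.31. Cd79b favoured CD8- DCs by at least 6.72-fold, and Ms4a1 favoured CD8+ DCs (5.74 against 4.99). The 6 plasmacytoid DC markers had summed signals of 8.63 and 8.37. Ccr9 was higher in CD8+ DCs by 4.26-fold (probe sets from 0.29 to 2.09). Tcf4 was higher in CD8- DCs by 4.24-fold (probe sets from -2.33 to -0.48). Of 6 melanoma markers, 2 reached the floor on each array (6.45 and 6.24). Markers of these lists thus lay on both sides, and the part of such cells in the differences of the GTPase genes was not tested.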

How the data were processed

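Total RNA was labelled as biotinylated cRNA and hybridised to 1 Affymetrix array per population. The deposited table holds log2 values for 45101 probe sets, made by the authors with RMA, per the submitters' processing notes. Its steps are background correction, quantile normalisation and a summary of each probe set, which hides any shift common to most transcripts. The RMA version, and which arrays were normalised as a set, is not given in the sources used. The array medians were 3.86 and 3.83.

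Genes were assigned from the platform annotation, with symbols updated by gene identifier to RefSeq (GRCm38.p6) for 34754 of the 34958 single-gene probe sets. The 932 with several genes and the 9211 not listed stayed out. The floor left 11404 measured genes. Differences were described at a threshold of 2-fold, with "at least" where the dimmer value was below the floor. The members and lists were chosen with earlier results of these data known. All members were named, and from each pathway list the genes past 2-fold with the floor applied, the 2 largest differences and the smallest; other genes were named for their role in the pathway or as markers. A planned comparison of protein sequences was not made.

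Alternatives were median centring, a lowess trend (span 0.3), other filters, values below the floor set to it, averaged probe sets, no _x_at or _s_at probe sets, and 1.5-fold and 4-fold thresholds. Python 3.11.15, numpy 2.4.6, pandas 2.3.3 and statsmodels 0.14.6 were used, tested on simulated data. Having 1 array per population limits precision, and differences between subsets, mice, sorts and hybridisations cannot be told apart.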

Additional observations from a re-analysis of the deposited data

How the results depend on the processing

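All 7 measured members kept their direction under each alternative that measured them, and the median of -0.87 stayed between -0.90 and -0.76. These alternatives could hardly have changed a direction. Median centring moved differences by 0.03, and the probe sets of each member had the same sign. Gbp3 and Gbp7, below the floor in CD8+ DCs, could be counted as measured only if higher in CD8- DCs. The count of 3 members at least 2-fold higher in CD8- DCs was 1 (Gbp2) with a floor at the 75th percentile, a log2 signal of 6.01, which left 4 members. It was 6 at 1.5-fold and 1 (Gbp7, as measured) at 4-fold, and at 1.5-fold 1 member (Iigp1) was higher in CD8+ DCs. Over all genes, the counts of 405 (CD8+) and 681 (CD8-) were 968 and 1314 at 1.5-fold and 98 and 239 at 4-fold. Gbp7 ranged from -2.33 to -1.45 and was the 1 member to move by more than 0.30. Signals near background limit what can be read of Gbp3, Gbp6, Gbp7 and Iigp1. With 1 array per population, no alternative bears on variation between mice or sorts.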

Other observations

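Some probe sets are annotated to a pair of GTPase genes and stayed out of the gene comparison. A probe set shared by 2 IRG genes other than the members read 8.34 on the CD8+ array and 9.33 on the CD8- array, a difference of -0.98. A probe set shared by 2 very large GTPase genes read 8.30 and 9.64, a difference of -1.33. The IRG pair and the very large GTPase pair were higher in CD8- DCs, and which gene of each pair gave the signal cannot be told from these values.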
